A study of Mus musculus with 24 samples.

Results

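The 5 genes described here encode the positive limb of the molecular clock and repressors that act at the same DNA sites. They are Arntl and Clock, whose proteins BMAL1 and CLOCK pair to activate transcription, and Bhlhe40, Bhlhe41 and Ciart, whose proteins DEC1, DEC2 and CHRONO oppose that activation. They were taken by their gene symbols in the array annotation with all their probe sets, which gave 6 of the 35556 probe sets and 5 of the 19938 genes measured. Ciart has 2 probe sets. Transcript levels were measured in C57/BL6 mice, in the suprachiasmatic nucleus (SCN), the small paired nucleus of the hypothalamus that paces daily rhythms. The mice had lived under 12 h of light and 12 h of darkness and were then held in complete darkness. No mutant, drug or other treatment was used, and the labels used here give neither sex nor age. There are 24 arrays, 1 every 2 h of circadian time (CT), each with RNA of 3 mice pooled. The second cycle (CT 42 to CT 64) and the first cycle (CT 18 to CT 40) hold 12 arrays each and cover the same 12 circadian times. With 1 array per time, the spread around a fitted 24-h cosine served as the error, and it holds technical as well as biological variation.

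CLOCK and BMAL1 bind as a pair to E-boxes, short DNA elements with the letters CACGTG, and switch on the Per and Cry genes, the nuclear receptor genes Nr1d1 and Nr1d2, and output genes such as Dbp. PER and CRY proteins then shut the pair off. NR1D1 represses Arntl through another element, the RORE, at which ROR proteins activate it. DEC1 and DEC2 are E-box binding repressors of the basic helix-loop-helix family, and CHRONO represses by binding to the CLOCK-BMAL1 complex.

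The promoter windows of Ciart, Bhlhe41 and Arntl are shown because they hold the 2 kinds of element through which this loop is wired. Each window runs from 250 bases before to 50 bases after an annotated start site, on the gene's own strand, 5′ to 3′, from RefSeq with the build GRCm38.p6. The Ciart window is chr3:95882179-95882478 on the minus strand, the Bhlhe41 window is chr6:145865371-145865670 on the minus strand and the Arntl window is chr7:113207261-113207560 on the plus strand. Capitals mark the E-box CACGTG in Ciart and Bhlhe41, and the RORE and a variant of it in Arntl. The RORE was searched as AANT followed directly by AGGTCA, and the variant as AANT followed directly by AGGTTA.
Ciart: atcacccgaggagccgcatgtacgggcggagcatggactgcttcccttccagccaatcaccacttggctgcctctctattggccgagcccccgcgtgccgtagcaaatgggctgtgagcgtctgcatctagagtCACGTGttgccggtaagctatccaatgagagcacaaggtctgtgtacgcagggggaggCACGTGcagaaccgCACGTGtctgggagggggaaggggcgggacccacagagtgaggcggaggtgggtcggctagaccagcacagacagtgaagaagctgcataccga
Bhlhe41: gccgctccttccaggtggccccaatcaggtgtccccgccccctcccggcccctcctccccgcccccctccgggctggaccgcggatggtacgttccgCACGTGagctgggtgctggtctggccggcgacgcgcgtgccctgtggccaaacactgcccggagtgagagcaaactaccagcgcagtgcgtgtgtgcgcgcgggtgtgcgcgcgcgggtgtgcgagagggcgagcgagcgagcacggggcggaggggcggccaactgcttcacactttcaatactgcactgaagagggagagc
Arntl: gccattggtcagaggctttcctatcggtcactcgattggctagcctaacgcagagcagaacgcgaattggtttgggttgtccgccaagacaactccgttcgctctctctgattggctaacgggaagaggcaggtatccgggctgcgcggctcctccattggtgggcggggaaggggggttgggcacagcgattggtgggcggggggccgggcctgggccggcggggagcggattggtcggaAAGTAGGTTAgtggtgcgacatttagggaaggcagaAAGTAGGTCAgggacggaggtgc

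Both strands were searched, and positions count the first base of a match, with the start site at 1 and the base before it at -1. The Ciart window held 3 E-boxes, at -116, -58 and -44. At least 1 E-box stood in 7.15% of the 32851 promoter windows of the table, and at least 3 stood in 29 windows (0.0883%). The Bhlhe41 window held 1 E-box, at -153. The Arntl window held the RORE at 28, a match found in 72 windows (0.219%), and the variant at -9, found in 49 windows (0.149%). The letters of the variant were chosen after this window had been read. The only window with both forms was that of Arntl. A second annotated start site of Arntl gave an overlapping window that held the variant alone. The 3 windows of Clock held neither an E-box nor either form of the RORE, and 1 of them held AGGTCA, the half-site contained in the RORE, which stood in 16.3% of all windows. The E-box variant CACGTT (4.68% of all windows) and the D-box TTATGNAA (3.38%) were in no window of these genes. Windows were used for 4 of the 5 genes, without Bhlhe40. A match describes the letters and is not evidence of binding.

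**Figure D1:**
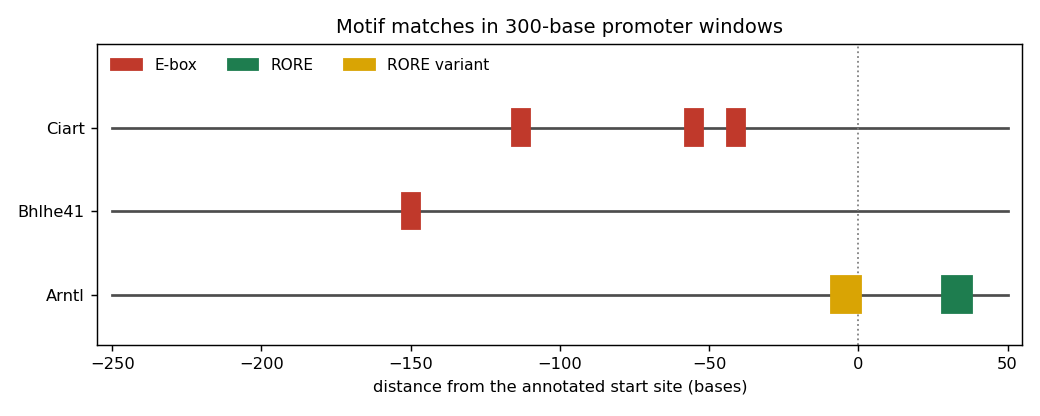
Positions of motif matches in the promoter windows of Ciart, Bhlhe41 and Arntl, in bases from the annotated start site (dotted line). Ciart has 3 E-boxes, Bhlhe41 has 1, and Arntl has a RORE at 28 and the RORE variant at -9.

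Levels are RMA-normalised log2 intensities, an amplitude is the log2 distance of the fitted peak from the mean, peak times are circadian hours from 0 to 24, and errors are standard errors of the fit unless given as SD. All 14 listed markers of the SCN were measured, and their mean lay between 8.19 and 8.99 in the second cycle and between 8.47 and 9.04 in the first cycle. That mean had a 24-h fit of its own, which peaked at 3.90 h (amplitude 0.16 ± 0.05). Of the 14 markers, 6 were themselves called rhythmic by limma, beside 7.65% of all genes. Rhythmic marker genes and a varying share of SCN tissue cannot be told apart in this mean. The arrays at CT 40, CT 62 and CT 64 had narrower interquartile ranges (2.48 to 2.67, against 2.72 to 2.90 on the other 21) and a higher mean over 1210 olfactory and vomeronasal receptor probe sets (0.16 to 0.34 above the series mean, against -0.15 to 0.04). That mean is called the array background here, and its own 24-h fit peaked at 13.5 h (amplitude 0.08 ± 0.03). Both amplitudes stand beside 0.09 to 0.17 for Arntl, Clock, Bhlhe40 and Bhlhe41. Of the 3 arrays of narrow range, CT 62 lies at circadian time 14 h, and CT 40 and CT 64 lie at 16 h. A fit without them has no array at 16 h, so narrow range and that circadian time cannot be told apart. The part of the SCN marker mean in the members' rhythms was not tested. The mean of 7 measured anterior pituitary markers lay between 5.08 and 5.99 in the second cycle and between 5.24 and 7.89 in the first cycle. That of 8 measured oligodendrocyte markers lay between 8.76 and 9.498 in the second cycle and between 8.42 and 9.52 in the first cycle. In pooled tissue, fewer cells of a type and less RNA per cell cannot be told apart.

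The first comparison asked which of the 5 transcripts follow a 24-h rhythm without light. By the moderated F test of limma, with Benjamini-Hochberg adjustment over 13956 genes and a threshold of 0.05, 2 of the 5 genes were rhythmic, Arntl and Ciart. Over all genes tested, 1067 (7.65%) passed. At an unadjusted p under 0.05 all 5 genes passed, against 27.5% of all genes. The 5 amplitudes lay between 0.09 for Clock and 0.45 for Ciart, with a median of 0.13, beside a median of 0.07 over all genes.

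Arntl encodes the DNA-binding partner that CLOCK requires. Its level peaked in the late subjective night, at 21.8 ± 0.81 h. The amplitude was 0.17 ± 0.04, or 1.27-fold between trough and peak (limma adjusted p = 0.0140). The 24-h cosine held 50.6% of its variance over the 24 arrays. At circadian times 18, 20 and 22 h, Arntl read 7.56, 7.73 and 7.86 in the second cycle and 7.73, 7.91 and 7.76 in the first cycle. At 6, 8 and 10 h it read 7.41, 7.50 and 7.31 in the second cycle and 7.33, 7.51 and 7.36 in the first cycle. The lowest of the 6 night arrays was above the highest of the 6 day arrays, and the difference of the means was 0.35, or 1.28-fold. By windows of 6 arrays, the level was highest at 18 to 22 h (7.76 ± 0.12, SD), then at 0 to 4 h (7.59 ± 0.12), at 12 to 16 h (7.46 ± 0.13) and at 6 to 10 h (7.40 ± 0.09). The last pair of windows differed by less than their SD. Between these windows the time course had a local high at 12 h, 7.58 in the second cycle and 7.64 in the first cycle, above both of its neighbours in each cycle.

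The highest Arntl level, 7.91, was at CT 20, the array with the highest pituitary marker mean (7.89). That marker mean had its own 24-h fit with a peak at 21.4 h and an amplitude of 0.44 ± 0.18. With it as a covariate, the amplitude of Arntl was 0.15 ± 0.04 and its call was lost (limma adjusted p = 0.0734). In the second cycle, where the marker mean was 5.99 or lower, the fitted amplitude of Arntl was 0.18 ± 0.05. Leaving out the 3 arrays of narrow range gave Arntl an amplitude of 0.18, a peak at 20.5 h and a limma adjusted p of 0.00306. No array at 16 h was left in that fit.

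Clock encodes the other partner of the activator pair, a protein with histone acetyltransferase activity. Its fitted peak was at 0.378 ± 1.48 h with an amplitude of 0.09 ± 0.04 (1.13-fold), which did not pass the test (limma adjusted p = 0.182). The level lay between 8.55 at CT 40 and 9.14 at CT 30, with a median of 8.98. At 18 to 22 h it read 8.99 to 9.13 in the second cycle and 9.07 to 9.14 in the first cycle. At 6 to 10 h it read 8.80 to 8.98 and 8.85 to 9.14 in these cycles, so the night and day arrays overlapped. The lowest array, CT 40, is one of those of narrow range. After adjustment for the array background the amplitude of Clock was 0.03 ± 0.03 (limma adjusted p = 0.772), and without the 3 arrays of narrow range it was 0.07 with a peak at 21.6 h (0.210).

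**Figure D2:**
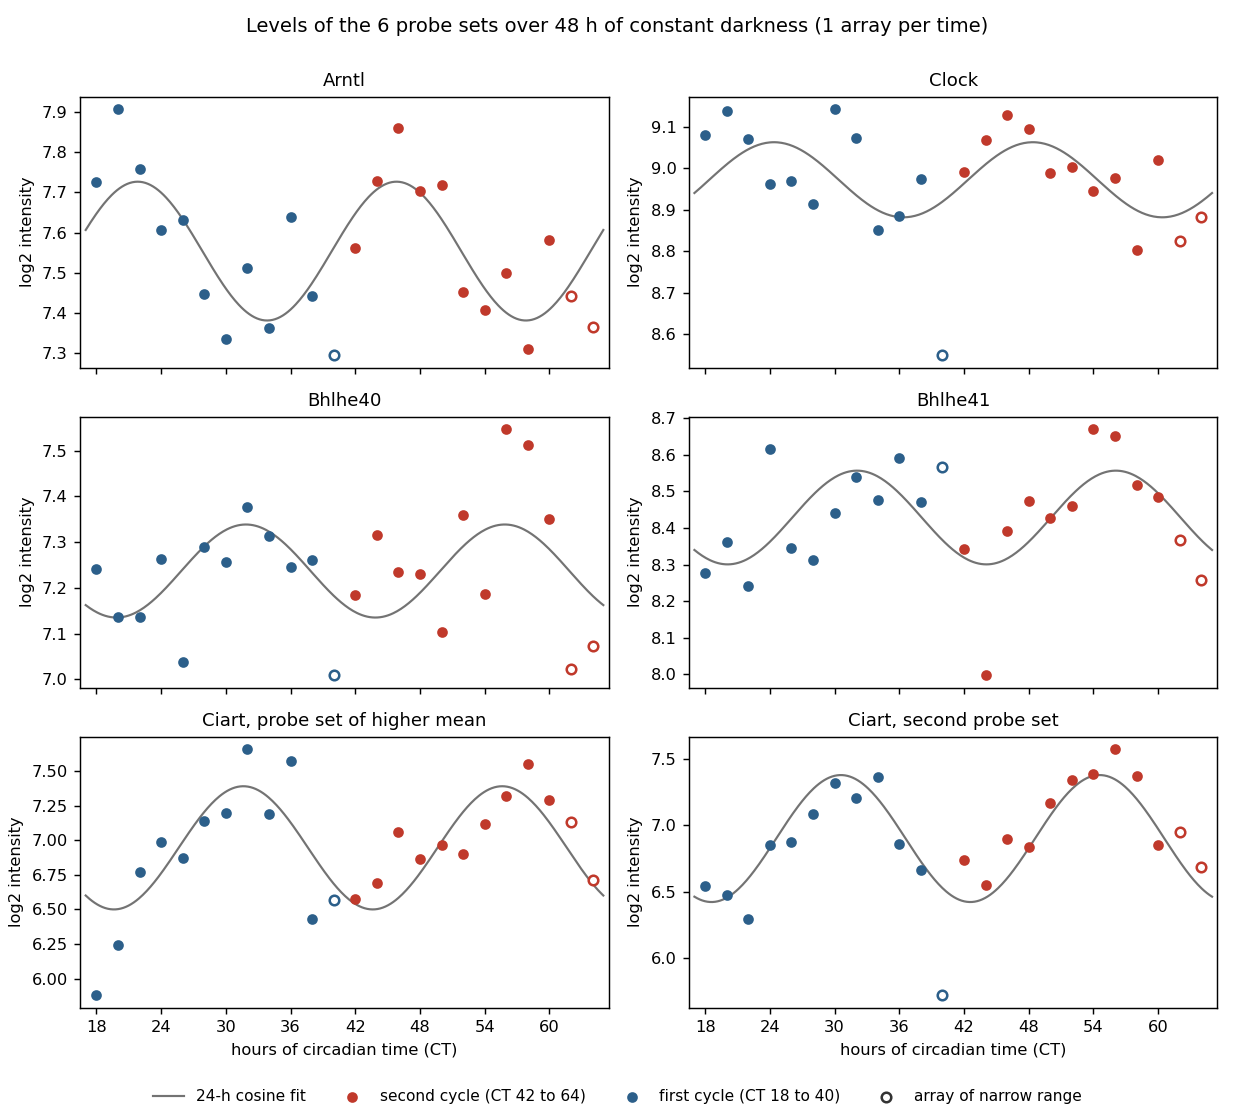
Log2 intensity of the 6 probe sets against hours of circadian time, 1 point per array, with the 24-h cosine fit. Second-cycle arrays are red, first-cycle arrays blue, and open points are the arrays of narrow range at CT 40, CT 62 and CT 64. Arntl is high near CT 20 and CT 46, Ciart is high near CT 32 and CT 58.

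Ciart encodes CHRONO, the repressor that docks on the CLOCK-BMAL1 complex, and it had the largest rhythm of the 5 genes. The probe set of higher mean peaked in the subjective day at 7.62 ± 0.63 h with an amplitude of 0.45 ± 0.07, or 1.85-fold between trough and peak (limma adjusted p = 0.00176). By amplitude it stood at rank 23 of the 13956 genes, and Arntl at rank 691. At 18, 20 and 22 h it read 6.58, 6.69 and 7.06 in the second cycle and 5.88, 6.25 and 6.77 in the first cycle. At 6, 8 and 10 h it read 7.12, 7.32 and 7.55 in the second cycle and 7.19, 7.66 and 7.19 in the first cycle. Each of the 6 night arrays was below each of the 6 day arrays, with a difference of -0.80 in the means (1.74-fold). Across the series the level lay between 5.88 at CT 18 and 7.66 at CT 32, a 3.44-fold range.

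The second Ciart probe set, read from the fit over 15409 probe sets, gave an amplitude of 0.48 ± 0.06, a peak at 6.58 ± 0.52 h and a trough-to-peak ratio of 1.94-fold (limma adjusted p = 0.000201). At 18, 20 and 22 h it read 6.74, 6.55 and 6.90 in the second cycle and 6.54, 6.48 and 6.29 in the first cycle. At 6, 8 and 10 h it read 7.39, 7.58 and 7.37 in the second cycle and 7.32, 7.21 and 7.37 in the first cycle, all above the night arrays. The annotation gives both probe sets the same transcripts and does not place their probes. The 24-h amplitude of their difference was 0.13 ± 0.10 (100000 permutations of the times, p = 0.478). On single arrays they could part, with the probe set of higher mean 0.85 above the other at CT 40 and -0.67 relative to it at CT 18.

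Bhlhe41, which encodes the repressor DEC2, had a fitted peak at 8.08 ± 1.08 h with an amplitude of 0.13 ± 0.04 (1.19-fold), just short of the threshold (limma adjusted p = 0.0600). At 18, 20 and 22 h it read 8.34, 7.997 and 8.39 in the second cycle and 8.28, 8.36 and 8.24 in the first cycle. At 6, 8 and 10 h it read 8.67, 8.65 and 8.52 in the second cycle and 8.44, 8.54 and 8.48 in the first cycle. The 6 night arrays were all below the 6 day arrays, with a difference of -0.28 in the means (1.21-fold). Bhlhe41 passed the test when the array at CT 24, CT 30 or CT 40 was left out (limma adjusted p = 0.0353, 0.0482 and 0.0333).

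Bhlhe40, which encodes DEC1, had a fitted peak at 7.86 ± 1.34 h with an amplitude of 0.10 ± 0.04 (1.15-fold) and did not pass (limma adjusted p = 0.133). Its level lay between 7.01 at CT 40 and 7.55 at CT 56, with a median of 7.24. At 8 and 10 h it read 7.55 and 7.51 in the second cycle and 7.38 and 7.31 in the first cycle, the highest values of each cycle. The arrays at 18 to 22 h (7.14 to 7.32) overlapped those at 6 to 10 h (7.19 to 7.55). The 2 lowest arrays, CT 40 and CT 62, have narrow ranges, and without the 3 such arrays the fitted peak was at 10.3 h (limma adjusted p = 0.104).

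The night arrays at 18 to 22 h and the day arrays at 6 to 10 h thus did not overlap for 3 of the 5 genes, Arntl, Bhlhe41 and Ciart. Among all genes tested, 187 (1.34%) showed no overlap between these windows, 109 higher at night and 78 lower. The windows were set with the peak times of these genes known.

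**Figure D3:**
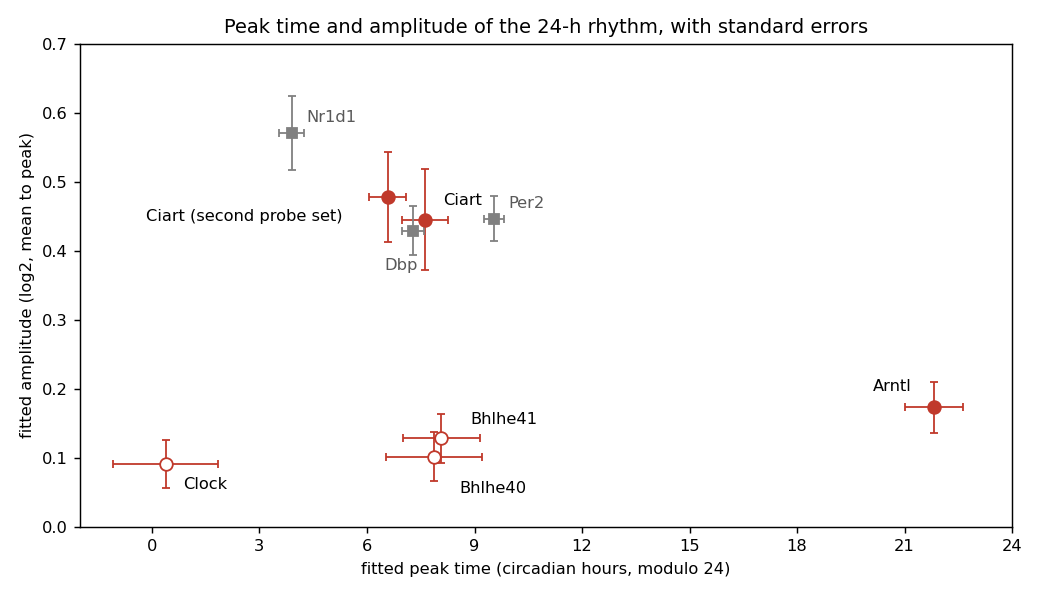
Fitted amplitude against fitted peak time for the 6 probe sets (red circles, filled where the adjusted p is under 0.05) and for Nr1d1, Dbp and Per2 (grey squares), with standard errors. The 3 repressor genes lie between 6.58 and 8.08 h, and Arntl lies at 21.8 h.

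The second comparison asked whether the 5 genes differ from each other in rhythm. For each of the 10 pairs a cosine was fitted to the per-array difference of the centred levels, and its amplitude was tested by 100000 permutations of the 24 times. Of the 10 pairs, 9 differed at an adjusted p under 0.05 over the 10. Arntl and Ciart differed most, with an amplitude of the difference of 0.60 ± 0.08 (permutation p = 1e-05, adjusted 0.0001, where 1e-05 is the lowest value 100000 permutations allow). Arntl differed from Bhlhe41 by 0.29 ± 0.05 (permutation p = 0.0001, adjusted 0.00025) and from Bhlhe40 by 0.27 ± 0.04 (permutation p = 4e-05, adjusted 0.000133). The partners Arntl and Clock differed by 0.12 ± 0.03 (permutation p = 0.00414, adjusted 0.00591).

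Clock differed from all 3 repressors although its own rhythm did not pass. The amplitude of the difference was 0.48 ± 0.09 from Ciart, 0.16 ± 0.04 from Bhlhe40 and 0.19 ± 0.06 from Bhlhe41 (permutation p adjusted to 0.000133, 0.0028 and 0.0128). Adjusted for the array background, the last of these no longer passed (adjusted permutation p = 0.0506). Ciart also differed from the other repressors, by 0.34 ± 0.09 from Bhlhe40 and 0.32 ± 0.09 from Bhlhe41 (adjusted permutation p = 0.00292 and 0.00723). The DEC paralogues were the pair that did not differ at this threshold, with an amplitude of the difference of 0.03 ± 0.05 (permutation p = 0.887).

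**Figure D4:**
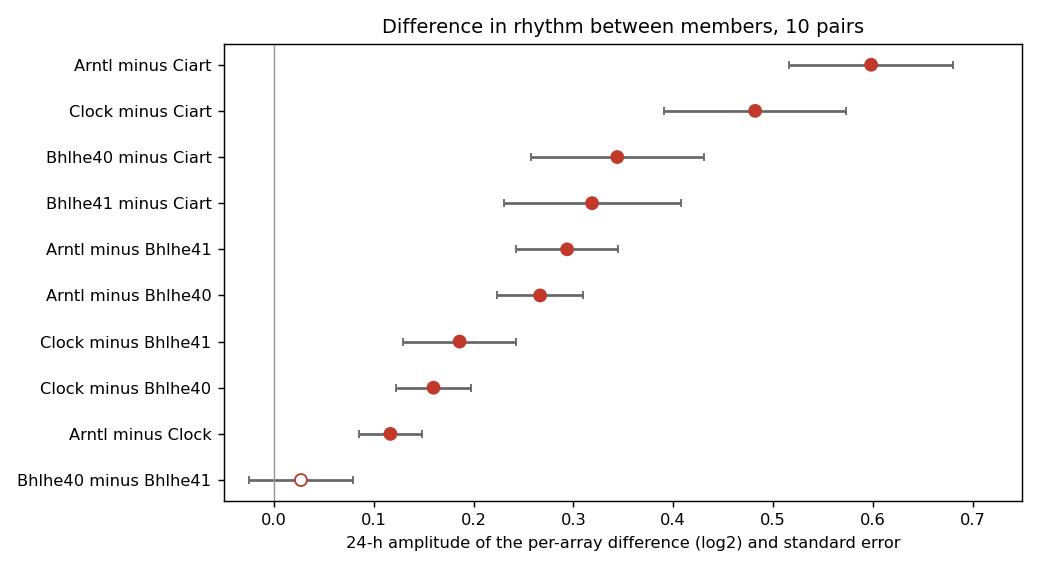
Amplitude of the 24-h rhythm in the per-array difference of each pair (log2), with its standard error, for 10 pairs. Filled points have an adjusted permutation p under 0.05. Arntl minus Ciart is largest at 0.60, and Bhlhe40 minus Bhlhe41 is smallest at 0.03.

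Peak times were compared with 95% confidence intervals of their difference. Arntl peaked -9.80 ± 1.19 h relative to the Ciart probe set of higher mean (Arntl minus Ciart, interval -12.3 to -7.33 h). Relative to the second Ciart probe set it peaked at -8.76 ± 1.08 h. Arntl minus Clock was -2.56 ± 1.29 h (interval -5.25 to 0.129 h). Bhlhe40 minus Bhlhe41 was -0.217 ± 1.78 h, with a wide interval of -3.91 to 3.48 h. Clock, Bhlhe40 and Bhlhe41 were not called rhythmic, and these differences depended on the setting. Without the 3 arrays of narrow range, fitted peaks were 20.5 h for Arntl, 21.6 h for Clock, 10.3 h for Bhlhe40 and 8.01 h for Bhlhe41. With the array background covariate they were 20.1, 21.4, 9.68 and 8.26 h. Bhlhe40 then peaked after Bhlhe41 in both settings. By its probe set of higher mean, Ciart peaked before Per2, with a difference of -1.92 ± 0.68 h (interval -3.33 to -0.505 h). By that probe set it peaked after Nr1d1 by 3.73 ± 0.78 h (2.11 to 5.35 h), and 0.333 ± 0.75 h from Dbp (-1.23 to 1.90 h). The second Ciart probe set gave -2.95 ± 0.66 h from Per2, 2.69 ± 0.51 h from Nr1d1 and -0.705 ± 0.60 h from Dbp. Per2 encodes a repressor of CLOCK-BMAL1, Nr1d1 the repressor of Arntl and Dbp an activator of output genes, and all 3 are E-box targets. Arntl minus Nr1d1 was -6.07 ± 0.92 h (interval -7.98 to -4.17 h), and Arntl minus Per2 was -11.7 ± 0.97 h (-13.7 to -9.70 h).

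The third comparison set the second cycle in darkness against the first. Of the 5 genes, limma called 0 for a change in level (0 at an unadjusted p under 0.05) and 0 for a change in rhythm (0 unadjusted). Over all genes it also called none for level (0%; 8.71% unadjusted) or rhythm (0%; 2.42% unadjusted). The fitted amplitudes of Arntl were 0.18 ± 0.05 in the second cycle and 0.17 ± 0.05 in the first cycle, with peaks at 22.5 and 21.1 h. Those of Bhlhe40 were 0.11 ± 0.05 and 0.09 ± 0.05 in these cycles, with peaks at 7.51 and 8.31 h. Those of Clock were 0.10 ± 0.05 and 0.09 ± 0.05, with peaks at 23.4 and 1.58 h.

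Ciart had an amplitude of 0.31 ± 0.09 in the second cycle and 0.60 ± 0.09 in the first cycle, with peaks at 8.71 and 7.06 h (limma unadjusted p of the change = 0.0544, adjusted 0.9999). Its arrays at 18 to 22 h read 6.58 to 7.06 in the second cycle and 5.88 to 6.77 in the first cycle. Its means at 6 to 10 h were 7.33 in the second cycle and 7.35 in the first cycle. Single times within that window also differed, with second minus first at -0.34 at 8 h and 0.36 at 10 h. The second Ciart probe set gave 0.41 ± 0.08 in the second cycle and 0.54 ± 0.08 in the first cycle. Its level was 0.26 ± 0.08 higher in the second cycle, at 10 of 12 circadian times, with an unadjusted p of 0.00288 that did not pass (limma adjusted p = 0.401). That difference passed after adjustment for the array background, at 0.27 (limma adjusted p = 0.0366 in the fit over all probe sets). In the separate fit of 1 probe set per gene, this setting called 66 of 13956 genes (0.473%), and that fit does not hold this probe set. Bhlhe41 had an amplitude of 0.20 ± 0.05 in the second cycle and 0.09 ± 0.05 in the first cycle, with peaks at 6.94 and 10.9 h, and this change did not pass either (limma unadjusted p = 0.0595).

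The SD between arrays of the same circadian time in different cycles was 0.07 for Arntl, 0.09 for Bhlhe40, 0.10 for Clock, 0.13 for Bhlhe41 and 0.27 for each Ciart probe set. Arntl thus had the lowest SD, with second minus first differences from -0.18 at 20 h to 0.10 at 22 h. Its fitted 24-h amplitude was 0.17. The largest difference of Bhlhe41 was at 20 h, where it read 7.997 in the second cycle and 8.36 in the first cycle. Those of the Ciart probe set of higher mean were at 18 h, with 6.58 in the second cycle and 5.88 in the first cycle, and at 14 h, with 7.13 and 6.43 in these cycles. That of the second Ciart probe set was at 16 h, with 6.69 in the second cycle and 5.72 in the first cycle. Both arrays at 16 h (CT 40 in the first cycle, CT 64 in the second cycle) have narrow ranges, as has the second-cycle array at 14 h (CT 62).

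**Figure D5:**
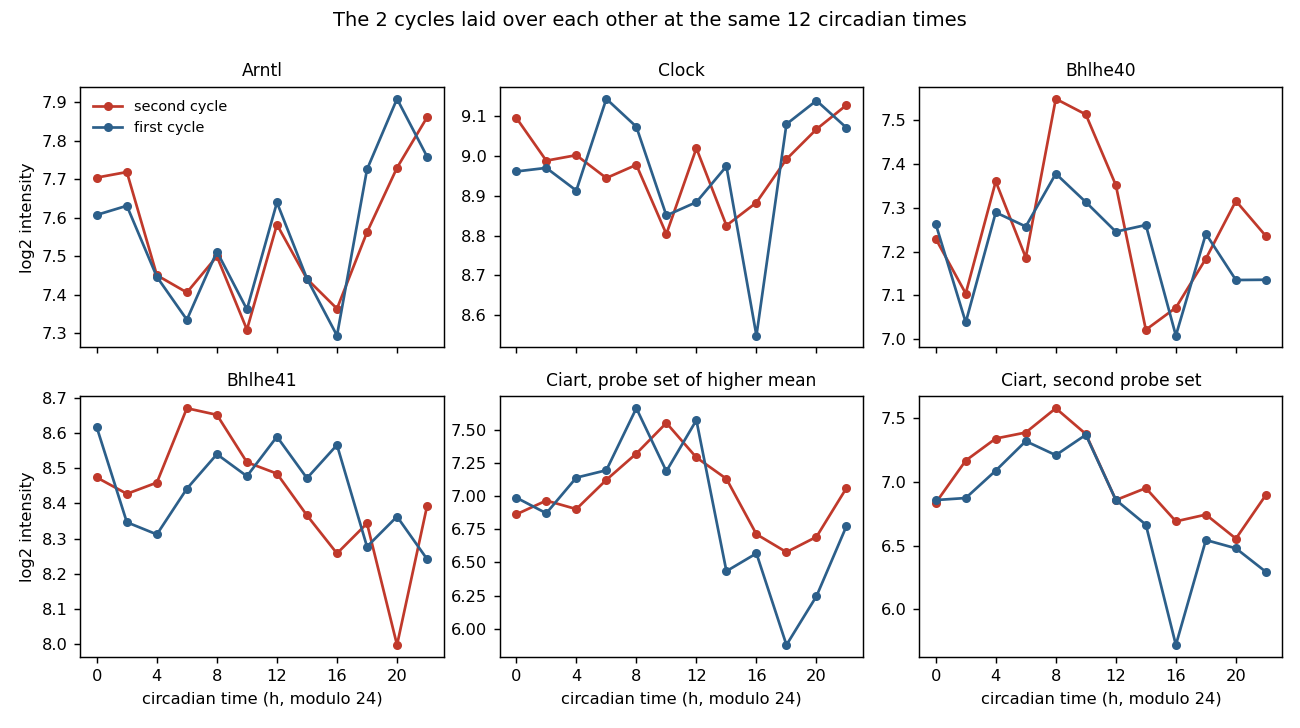
Log2 intensity of the 6 probe sets in the second cycle (red) and the first cycle (blue) at the same 12 circadian times, 1 array per point. The lines of Arntl nearly coincide, and those of Ciart part at night, where the first cycle is lower.

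A shape beyond a single cosine was tested with terms of 12 h beside those of 24 h, and it did not pass for any of the 5 genes. The 12-h terms had an amplitude of 0.23 ± 0.06 in Ciart, 0.10 ± 0.03 in Bhlhe40 and 0.10 ± 0.03 in Arntl (limma adjusted p = 0.121, 0.142 and 0.165). Of the 5 genes limma called 0 and these 3 had an unadjusted p under 0.05, while over all genes it called 5 (0.0358%; 21.9% unadjusted). Ciart is counted there by its probe set of higher mean. Its second probe set had a 12-h amplitude of 0.09 ± 0.06 (limma unadjusted p = 0.381). When the period was free between 20 and 28 h, the best value was 26.4 h for Arntl (95% range 23.4 to 28 h) and 25.5 h for Ciart (23.3 to 28 h). For the second Ciart probe set it was 23.7 h, with a range of 21.5 to 26.2 h. That was the only probe set of the 6 whose range did not reach a limit of the search.

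The genes whose levels most resembled each member were ranked by Pearson r over the 24 arrays among all genes tested, as a description. The 24 points share their arrays, with the range of signal and the background of each. For Arntl they were Akr1e1, an aldo-keto reductase (r = 0.890), Tle4, a Groucho corepressor (0.852), and Pik3r3, a regulatory subunit of PI3-kinase (0.838). Akr1e1 was itself rhythmic, with a peak at 21.4 h and an amplitude of 0.25 ± 0.04 (limma adjusted p = 0.00386). The genes most opposite to Arntl were Tnni3, a troponin (r = -0.788), and Crnde, a noncoding RNA (-0.734). Arntl itself had r = -0.639 with the array background, Clock -0.770, Bhlhe40 -0.353, Ciart -0.0127 and Bhlhe41 0.00903.

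The genes most like Clock were Zmym2 and Zfp280d, which encode zinc finger proteins (r = 0.892 and 0.889), and Oga, the enzyme that removes O-linked GlcNAc (0.889). All 3 also had negative r with the array background, from -0.878 to -0.602. Ciart was ranked by its probe set of higher mean alone, which had r = 0.640 with the second Ciart probe set. The gene nearest to it was Cry2, a repressor of CLOCK-BMAL1 (r = 0.811), which peaked at 7.27 h with an amplitude of 0.18 ± 0.03 (limma adjusted p = 0.00411). The metallothionein gene Mt2 (0.777) and the deubiquitinase gene Usp36 (0.763) came next, with peaks at 9.02 and 6.45 h. Opposite to Ciart were Manf, a secreted factor of endoplasmic reticulum stress (r = -0.772), and Zmym1 (-0.753), with peaks at 19.5 and 20.2 h. For Bhlhe41 the nearest were Nacad (r = 0.768), Hlf, an activator of output genes at D-boxes (0.714), and Tssc4 (0.705). Hlf peaked at 7.25 h with an amplitude of 0.18 ± 0.03. For Bhlhe40 they were Pcid2 (r = 0.785), Pcnx3 (0.774) and Chpf2 (0.713), with peaks from 5.06 to 6.74 h.

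Genes around this loop were read from fixed lists. Of 16 measured E-box targets of the clock, 13 were rhythmic by limma, beside 7.65% of all genes, and their median amplitude was 0.21 against 0.07 over all genes. Peaks fell at 6 to 12 h for 11 of the 13, and before 6 h for the other 2. Per2 peaked at 9.53 ± 0.28 h, Dbp at 7.29 ± 0.32 h and Nr1d1 at 3.89 ± 0.36 h, with amplitudes of 0.45, 0.43 and 0.57. Of 8 measured regulators and targets of the RORE, 7 were rhythmic. Besides Nr1d1 they included Nr1d2, its paralogue, at 6.04 h (amplitude 0.19 ± 0.03), and Nfil3, a repressor of D-box genes, at 19.1 ± 0.50 h (0.27 ± 0.04). These lists were drawn up with earlier results of these data known and are no independent evidence.

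Calls among relatives of CLOCK and BMAL1 were read beside the shares over all genes, 7.65% adjusted and 27.5% unadjusted, and with lists this short the counts are near that background. Of 12 tested genes of the bHLH-PAS and coactivator family, limma called 0 (4 unadjusted), with a median amplitude of 0.07. The nearest were Arnt2, a partner of many bHLH-PAS proteins, at 0.11 ± 0.03 (adjusted p = 0.0545), and Ahr, the dioxin receptor, at 0.11 ± 0.04 (0.127). Arntl2, the paralogue of Arntl, was looked at after its values were seen and had an amplitude of 0.05 ± 0.04 (limma adjusted p = 0.538). Of 20 other factors that bind CACGTG, limma called 0 (4 unadjusted), with Mxd4 (0.12 ± 0.03, adjusted p = 0.0555) and Tfe3 (0.09 ± 0.03, 0.0675) nearest. Of 7 HES and HEY repressors, the family to which the DEC proteins are related, limma called 0 (1 unadjusted), with Heyl at 0.15 ± 0.04 (0.0535) and Hes6 at 0.07 ± 0.04 (0.384).

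Of 27 measured cofactors of CLOCK-BMAL1, limma called 2, a share near the 7.65% of all genes. At an unadjusted p under 0.05, 11 passed, a larger share than the 27.5% of all genes, and this difference in share was not tested. Smarca4, the BRG1 chromatin remodeller, peaked at 0.914 h with an amplitude of 0.13 ± 0.03 (adjusted p = 0.0273). Hdac3, the deacetylase recruited by NR1D1, peaked at 3.85 h with an amplitude of 0.14 ± 0.04 (limma adjusted p = 0.0322). It is also counted among the 7 rhythmic genes of the RORE list. The median amplitude of the cofactors was 0.09, against 0.07 over all genes.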

How the data were processed

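The values deposited by the authors are log2 intensities per probe set. They were made by RMA (version 1.3.1.187) in Affymetrix Expression Console, per the submitters' processing notes. Per the labels' protocols, RNA of 3 mice was pooled in equal amounts for each array, amplified and biotin-labelled. Other settings and the genome build are not given in the sources used here. No further normalisation was applied, and 0 columns of other series were present.

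Each gene took its probe set of highest mean, and genes whose mean fell short of the 30th percentile of gene means (log2 5.52) were not tested. All 5 members passed. Fits of the whole table used limma 3.58.1 in R 4.3.3 (lmFit and eBayes, Benjamini-Hochberg over 13956 genes, threshold 0.05, two-sided, 21 residual degrees of freedom). The 24-h test was a moderated F test of cosine and sine terms, and further terms were added for cycle, their interaction and a 12-h period. Pairs used 100000 seeded permutations in Python 3.11.15 with NumPy 2.4.6. Errors of peak times came from the delta method, and intervals cover 95%. Scripts were tested on simulated data with known rhythms.

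The members, windows, lists and tests were chosen with earlier results of these data known. Besides the members, the text names Per2, Nr1d1 and Dbp, the called genes of lowest adjusted p in each list, 3 at most (the 2 of lowest p in a list with no call), and the 3 genes of highest r with each member (for Arntl and Ciart also the 2 of lowest r). Arntl2 falls outside this rule and was named after its values were seen. The 12 arrays of a cycle stand for 12 different times and are not replicates. Alternatives covered the filter, all probe sets, normalisation, array weights, the variance prior, covariates, the threshold and leaving out arrays.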

Additional observations from a re-analysis of the deposited data

How the results depend on the processing

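Of the 5 genes, 2 were called rhythmic on all arrays. The count was 4 with the oligodendrocyte marker mean as a covariate, where 3467 genes (24.8%) passed and Clock and Bhlhe41 were added. It was 1 with the anterior pituitary marker mean as a covariate (750 genes) and 1 at a threshold of 0.01 (170 genes). It was 3, with Bhlhe41, under the 50th percentile filter, array weights and 12-h terms in the fit, and lay between 2 and 3 when each array was left out in turn. Ciart was called in every one of these settings, with amplitudes from 0.38 to 0.48. The uncalled differences in level between cycles changed sign in some settings for Arntl (-0.03 to 0.06), Clock (-0.03 to 0.07) and Bhlhe41 (-0.04 to 0.02), each within 1 standard error of 0 on all arrays. Over all genes the 24-h count was 1067 on all arrays, 679 after leaving out the 3 arrays of narrow range, 533 with the array background covariate, 1570 with array weights, 1775 with 12-h terms in the fit, and 704 to 1440 with single arrays left out. Calls of a change in level over all genes were 0 on all arrays, 66 with the array background covariate and 5 with array weights. The 12-h count over all genes was 5 on all arrays and 0 to 11 across settings. With circadian time as a block, pairing the 12 times of the cycles, no member's change in level was called. Of the 10 pairs of genes 9 differed, and 8 with the array background covariate. The cause of these shifts was not tested. The amplitudes of Clock and Bhlhe40 carried standard errors of 0.04 and did not reach the threshold over all genes.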
